A study of Mus musculus with 8 samples.

Results

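The IL-2 receptor and its STAT5 signalling genes were followed in regulatory T (Treg) cells, a T cell lineage that is defined by Foxp3 and dampens immune responses, after loss of the alternative NF-κB genes Relb and Nfkb2. The 10 genes were taken by symbol from the 22432 in the expression table: the receptor chains Il2ra, Il2rb and Il2rg, the kinases Jak1 and Jak3, the transcription factors Stat5a and Stat5b, and the inhibitors Cish, Socs1 and Socs2. RNA was sequenced from 2 libraries in each of 4 genotypes, 8 in all. Every mouse was C57Bl/6 with Foxp3-CRE-YFP, a Cre recombinase with a yellow fluorescent reporter under Foxp3. DKO mice carried RelB F/F and nfkb2 F/F as well, Nfkb2-KO mice nfkb2 F/F, RelB-KO mice RelB F/F, and WT mice the Cre without a floxed gene. Deletion is therefore tied to cells that express Foxp3. YFP+ cells were sorted from spleen and lymph nodes, which were pooled. All 4 genotypes were then cultured for 16 h with plate-bound anti-CD3 (5 µg/ml), soluble anti-CD28 (1 µg/ml), agonist anti-OX40 (2 µg/ml) and murine IL-2 (10 ng/ml), so no group is unstimulated or free of added IL-2. The sources used here do not say whether the 2 libraries of a genotype came from separate animals, so the p-values measure only the spread between these libraries.

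IL-2 binds a receptor of the alpha chain CD25 (Il2ra), the beta chain CD122 (Il2rb) and the common gamma chain CD132 (Il2rg). The alpha chain raises affinity, and the other chains carry the signal. Beta binds the kinase JAK1 and gamma binds JAK3, and together they phosphorylate STAT5A and STAT5B, which enter the nucleus and bind DNA. CIS (Cish), SOCS1 and SOCS2 are induced by this signal and restrain cytokine receptor signalling. Treg cells carry high CD25, make little IL-2 themselves and depend on STAT5 for Foxp3 expression and survival. The common gamma chain also serves the receptors for IL-4, IL-7, IL-9, IL-15 and IL-21. RelB and the Nfkb2 products are subunits of the alternative NF-κB pathway, and the unprocessed Nfkb2 precursor can hold RelB in the cytoplasm.

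Promoter windows of 280 bases, 250 upstream and 30 downstream of the annotated start, were read from RefSeq (GRCm38.p6) for Stat5a, Il2ra and Il2rg, the members with the largest differences from WT, and for Cish, a well-known STAT5 target. RefSeq entries matched 8 of the 10 members, with Il2rb and Socs2 unmatched, and gave 10 windows. Capitals mark a match on either strand to the STAT motif GAS, spelled TTCNNNGAA, or to an NF-κB form spelled GGGNNTTCC. The motifs did not overlap in any of these windows.
Il2ra chr2:11642542-11642821, plus strand: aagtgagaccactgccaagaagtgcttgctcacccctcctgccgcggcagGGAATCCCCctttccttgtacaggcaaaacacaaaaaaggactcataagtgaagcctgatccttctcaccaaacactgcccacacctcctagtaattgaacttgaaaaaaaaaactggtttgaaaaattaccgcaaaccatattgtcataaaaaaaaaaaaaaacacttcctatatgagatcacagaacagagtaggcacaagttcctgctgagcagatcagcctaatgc
Il2rg chrX:101268226-101268505, minus strand: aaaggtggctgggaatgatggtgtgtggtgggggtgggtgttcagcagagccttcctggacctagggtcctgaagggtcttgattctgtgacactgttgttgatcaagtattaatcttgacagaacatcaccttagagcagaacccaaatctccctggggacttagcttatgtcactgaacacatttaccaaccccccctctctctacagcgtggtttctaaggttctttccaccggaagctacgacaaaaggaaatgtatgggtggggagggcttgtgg
Stat5a chr11:100859406-100859685, plus strand: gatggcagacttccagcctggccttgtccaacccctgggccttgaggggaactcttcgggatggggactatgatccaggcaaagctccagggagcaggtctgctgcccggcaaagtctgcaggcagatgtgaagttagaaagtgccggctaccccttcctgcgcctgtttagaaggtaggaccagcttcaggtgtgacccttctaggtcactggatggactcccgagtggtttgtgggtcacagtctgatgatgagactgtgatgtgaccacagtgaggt
Stat5a chr11:100860234-100860513, plus strand: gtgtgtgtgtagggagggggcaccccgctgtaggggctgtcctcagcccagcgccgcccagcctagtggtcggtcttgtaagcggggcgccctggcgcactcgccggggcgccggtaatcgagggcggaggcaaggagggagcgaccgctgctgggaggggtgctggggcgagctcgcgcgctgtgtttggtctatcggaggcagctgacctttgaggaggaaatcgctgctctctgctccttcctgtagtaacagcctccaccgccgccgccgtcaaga
Cish chr9:107296409-107296688, plus strand: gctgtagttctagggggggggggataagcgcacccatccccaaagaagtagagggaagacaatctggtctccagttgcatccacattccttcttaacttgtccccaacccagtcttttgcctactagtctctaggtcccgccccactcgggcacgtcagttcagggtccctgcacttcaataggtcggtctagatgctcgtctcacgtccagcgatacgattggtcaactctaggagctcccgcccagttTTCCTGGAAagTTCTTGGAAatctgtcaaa
Cish held 2 GAS matches, both just downstream of its start, and none of the other windows held one. At least 1 GAS match was present in 7.83% of 32851 mouse promoter windows of this length, and 2 or more in 0.408%. The NF-κB form was found once in Il2ra, at position -200 from the start, and once in a Stat5b window at -138. It was present in 5.54% of all windows. Il2rg, Jak1, Jak3, Stat5a and Socs1 held neither set of letters. A match describes letters in the window and is not a measured binding site.

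In mm10, with GENCODE vM21 genes, Il2ra lies at chr2:11642807-11693193, Il2rb at chr15:78479256-78495271, Il2rg at chrX:101264378-101268255, Jak1 at chr4:101152367-101265282 and Jak3 at chr8:71676296-71690575. Stat5a lies at chr11:100859351-100885169 and Stat5b beside it at chr11:100780731-100850724. Cish is at chr9:107296026-107302784, Socs1 at chr16:10782240-10785536 and Socs2 at chr10:95385362-95417180. Values of some members may hold reads of another gene, since the counting rule is not given in the sources used here. Il2rg shares 728 exonic bases with the same-strand gene model Gm20489, and Jak3 shares 404 with Insl3, a gene that lay between 6.90 and 7.48 on the table's log2 scale. Of the 50-base stretches of the transcripts, 27.5% in Il2rg were also found in Gm20489, which is not a row of the table, 8.21% in Stat5a were also found in Stat5b, and 11% in Stat5b were also found in Stat5a.

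Expression is given as the deposited log2 value of each library. The table calls it batch-corrected log2 RPKM, but the values did not behave as RPKM (un-logged, each library summed to 18.2 to 19.7 M), so levels are compared here between libraries and not between genes. The design gives 30 M reads per sample, and the depth behind each value is otherwise unknown. Relb was at 6.74 and 7.08 in DKO and 6.35 and 6.52 in RelB-KO, against 10.66 and 10.49 in WT. Nfkb2 was at 9.29 and 9.85 in DKO and 8.75 and 8.79 in Nfkb2-KO, against 12.80 and 12.62 in WT. Foxp3 lay between 13.95 and 14.28 in all 8 libraries. Summed B cell markers lay between 7.25 and 7.82 on the log2 scale with Pax5 at 0, summed myeloid markers between 5.93 and 6.64, and summed CD8 and NK cell markers between 9.09 and 9.75. Summed Treg markers, of which the member Il2ra is the highest, lay between 17.3 and 17.6, and each of these ranges is across libraries of 1 list. WT replicate 1 stood apart in sex-linked transcripts, with Xist at 8.17 and Ddx3y at 11.60, against 14.6 to 15.1 and 4.25 to 4.35 in the other libraries, so comparisons with WT are also given without it where they are called. In bulk RNA, fewer cells that express a gene and less of its RNA per cell cannot be told apart.

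**Figure D1:**
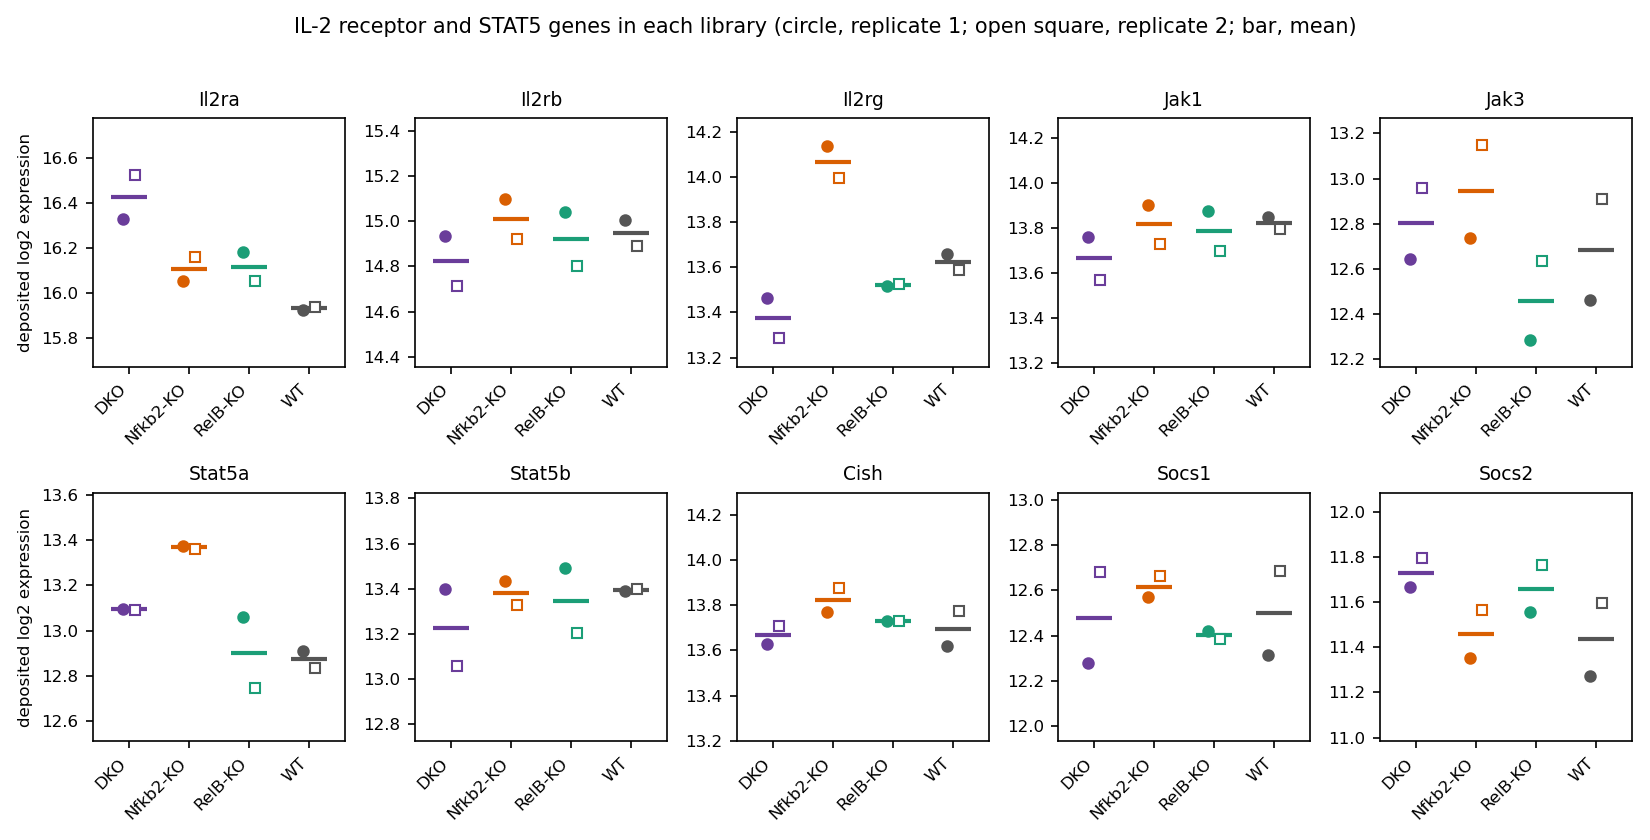
Deposited log2 expression (vertical axis, same span of 1.1 log2 units in each panel) of the 10 genes in DKO, Nfkb2-KO, RelB-KO and WT Treg cells; filled circles are replicate 1, open squares replicate 2 and bars the mean of n = 2. Il2ra was highest in the 2 DKO libraries (16.33 and 16.52), and Il2rg and Stat5a were highest in the 2 Nfkb2-KO libraries.

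All 10 members passed the filter on low values and were among the 13797 genes tested. Differences are on the log2 scale with the standard error of a limma model of the 4 genotypes. A value after ± is the error of that model, also where a p with the block stands beside it. The threshold for a call was 0.05 on the p adjusted by Benjamini-Hochberg over all 13797. A second model adds the replicate number as a block, because replicates of the same number varied together. Libraries of the same number correlated at 0.9973 to 0.9993, and libraries of the same genotype at 0.9934 to 0.9941. The largest axis of variation between libraries held 67.8% of the variance and parted replicate 1 from replicate 2. The model without the block counts this shift as error. Without the block 1 member was called in any of the 7 contrasts, Il2rg between DKO and Nfkb2-KO, where 0.768% of the genes tested passed. With the block Il2rg was again the member called there, where 5.02% of the genes tested passed. Between Nfkb2-KO and RelB-KO, 0 of 10 were called without the block (0.797% of all genes) and 3 with it (4.46%), Il2rg, Stat5a and Jak3. Between Nfkb2-KO and WT, 0 of 10 were called without the block (0.341% of all genes) and 2 with it (2.91%), Il2rg and Stat5a.

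DKO against WT gave 0 member calls without the block (0.0145% of all genes called) and 0 with it (0.0652%). Of the 10 members, 2 had an unadjusted limma p under 0.05 without the block, as did 5.18% of all genes. With the block Il2ra, Socs2, Il2rg and Stat5a were under that limit, as were 1773 of the 13797 genes tested. RelB-KO against WT also gave 0 without (0.00725%) and 0 with the block (0.0145%), and so did DKO against RelB-KO (0.00725% and 0.0145%). In neither was a member at an unadjusted p under 0.05 without the block, against 1.24% and 2.88% of all genes. With the block Jak3 and Socs2 were under that limit in RelB-KO against WT, as were 432 genes in all. Jak3 and Il2ra were under it in DKO against RelB-KO with the block, as were 1216 genes in all. The interaction of the 2 deletions sets the effect of RelB loss in cells lacking Nfkb2 against that in cells that have it. It called 0 members without the block (0.00725% of all genes) and 0 with it (0.471%). Without the block 1 member had an unadjusted p under 0.05, as did 4.45% of all genes. With the block Il2rg and Stat5a were under that limit, as were 1153 genes in all. The authors' deposited table, which holds their own comparisons of each knockout with WT, called Il2ra in DKO (1.23% of the 10959 genes it tested), Il2rg, Stat5a and Jak3 in Nfkb2-KO (6.22% of 11881) and no member in RelB-KO (0.119% of 10959).

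The members' differences did not share a direction for DKO minus WT, with 4 positive and 6 negative and a median of -0.02, against 0.00 for all genes. For Nfkb2-KO minus WT 8 were positive and 2 negative (median 0.12, against 0.00 for all genes), and for DKO minus Nfkb2-KO 2 were positive and 8 negative (median -0.15, against 0.00). These contrasts share the Nfkb2-KO libraries. Both libraries of one genotype lay beyond both of the other for 5 members between DKO and WT (34.1% of all genes), 3 between Nfkb2-KO and WT (42.5%), 2 between RelB-KO and WT (20.6%), 5 between DKO and Nfkb2-KO (35.1%), 5 between DKO and RelB-KO (27.5%) and 5 between Nfkb2-KO and RelB-KO (42%). With 2 libraries a group such separation is common over all genes, and these counts are given as a description.

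**Figure D2:**
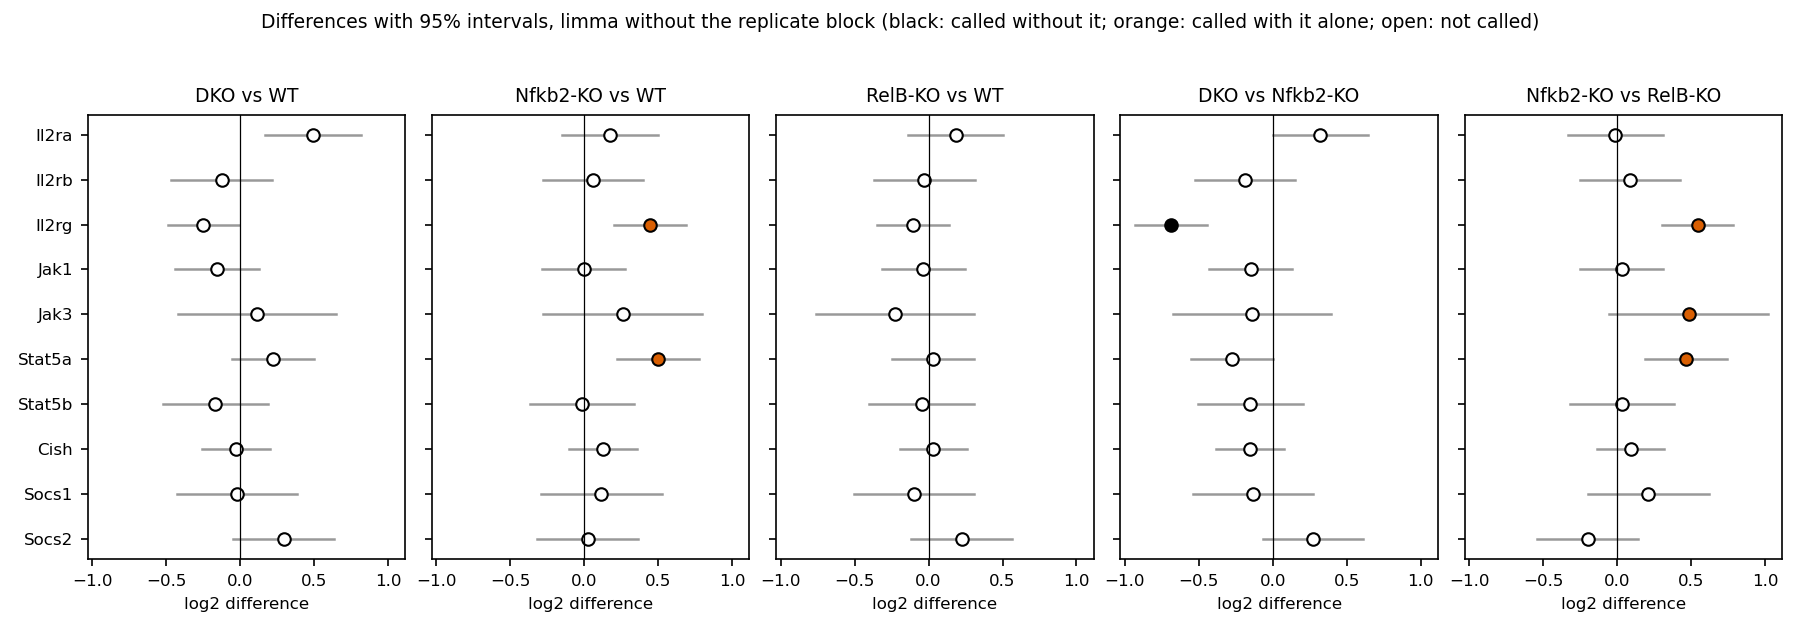
Log2 difference (horizontal axis) of each gene in 5 contrasts, tested genotype minus the one it is set against, with 95% intervals from the model without the replicate block; black points were called by that model, orange points only with the block, and open points by neither. Il2rg between DKO and Nfkb2-KO (-0.69) is the single black point, and the 5 orange points are all in contrasts of Nfkb2-KO with WT or RelB-KO.

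The common gamma chain showed the widest spread of genotype means among the members. Il2rg was at 13.47 and 13.29 in DKO, 14.14 and 14.00 in Nfkb2-KO, 13.52 and 13.53 in RelB-KO and 13.66 and 13.59 in WT. Both Nfkb2-KO libraries lay above all others and both DKO libraries below all others. Between DKO and Nfkb2-KO it fell by 0.69 ± 0.10 (adjusted p = 0.047 in limma, 0.00215 with the block). That call was lost without the block when any 1 of the 8 libraries was left out, with limma adjusted p from 0.0945 to 0.261, and was made with the block in 8 of 8 omissions, from 0.00218 to 0.042.

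Il2rg was 0.44 ± 0.10 higher in Nfkb2-KO than in WT (95% interval 0.20 to 0.68; limma adjusted p = 0.213), and rose with the block (adjusted p = 0.0243). The authors' deposited table gives 0.47 with an adjusted p of 1.37e-05. Il2rg is X-linked, and without WT replicate 1 the difference with the block was 0.42 and was not called (limma adjusted p = 0.0908). Any omission of an Nfkb2-KO or WT library ended that call, and 4 of 8 omissions kept it. Against RelB-KO the difference in Nfkb2-KO was 0.54 ± 0.10, which passed with the block (limma adjusted p = 0.0921 without and 0.00666 with it). It was called with the block in 6 of 8 omissions, and not without Nfkb2-KO replicate 1 or RelB-KO replicate 1, the highest adjusted p being 0.0883.

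DKO and RelB-KO did not differ from WT by a called amount in Il2rg. DKO minus WT was -0.25 ± 0.10 (limma adjusted p = 0.861, 0.282 with the block) and RelB-KO minus WT was -0.10 ± 0.10 (limma adjusted p = 1). Loss of RelB went with a difference of -0.69 in cells without Nfkb2 and of -0.10 in cells with it. The test of that difference, the interaction, gave -0.59 ± 0.14 with an unadjusted p of 0.00524 and a limma adjusted p of 0.623, or 0.0765 with the block, and was not called.

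Il2ra, the high-affinity alpha chain, had its highest values in DKO cells. It was at 16.33 and 16.52 in DKO, 16.05 and 16.16 in Nfkb2-KO, 16.18 and 16.05 in RelB-KO and 15.93 and 15.94 in WT. The 2 DKO libraries lay above all others, the 2 WT libraries below all others, and the single knockouts overlapped each other in between. DKO minus WT was 0.49 ± 0.13 (95% interval 0.17 to 0.82; unadjusted p = 0.00898), with a limma adjusted p of 0.861, or 0.198 with the block. The authors' deposited table gives 0.52 with an adjusted p of 0.00018, so the gene was called there and not here.

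Without WT replicate 1 the DKO minus WT difference in Il2ra was 0.49 (limma adjusted p = 0.967). Quantile normalization made it 0.30 (limma adjusted p = 0.926), a shift by over 1.5 times. By deposited value Il2ra ranked 4 to 7 among 16184 genes in every library. That normalization sets a value by its rank, so at such ranks it cannot show how stable the difference is. The single knockouts differed from WT by similar amounts, 0.17 ± 0.13 in Nfkb2-KO (limma adjusted p = 0.742) and 0.18 ± 0.13 in RelB-KO (limma adjusted p = 1). DKO exceeded Nfkb2-KO by 0.32 ± 0.13 (limma adjusted p = 0.51) and RelB-KO by 0.31 ± 0.13 (limma adjusted p = 1), and neither was called with the block.

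Il2rb, the signalling beta chain, was at 14.93 and 14.71 in DKO, 15.10 and 14.92 in Nfkb2-KO, 15.04 and 14.80 in RelB-KO and 15.01 and 14.89 in WT. Replicate 1 was above replicate 2 in every genotype, and every pair of genotypes overlapped. DKO minus WT was -0.13 ± 0.14 (95% interval -0.46 to 0.21; limma adjusted p = 0.93), and DKO minus Nfkb2-KO was -0.19 ± 0.14 (limma adjusted p = 0.834). The genotype order of the means was Nfkb2-KO, WT, RelB-KO and DKO, and no neighbours in it differed beyond their spread.

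The log2 difference between 2 genes of a library holds the fixed ratio of their lengths, which cancels when the difference is compared between genotypes, so its size in any 1 library is not read. Il2rg minus Il2rb was -1.47 and -1.43 in DKO, -0.96 and -0.92 in Nfkb2-KO, -1.52 and -1.28 in RelB-KO and -1.35 and -1.30 in WT. Both Nfkb2-KO libraries stood above all 6 others. Il2ra minus Il2rg was 2.86 and 3.24 in DKO, 1.92 and 2.16 in Nfkb2-KO, 2.66 and 2.53 in RelB-KO and 2.27 and 2.35 in WT. By this measure DKO and Nfkb2-KO lay at opposite ends, with no overlap between any genotypes. Il2ra minus Il2rb was 1.40 and 1.81 in DKO, 0.95 and 1.24 in Nfkb2-KO, 1.14 and 1.25 in RelB-KO and 0.92 and 1.05 in WT, and DKO stood above the rest.

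**Figure D3:**
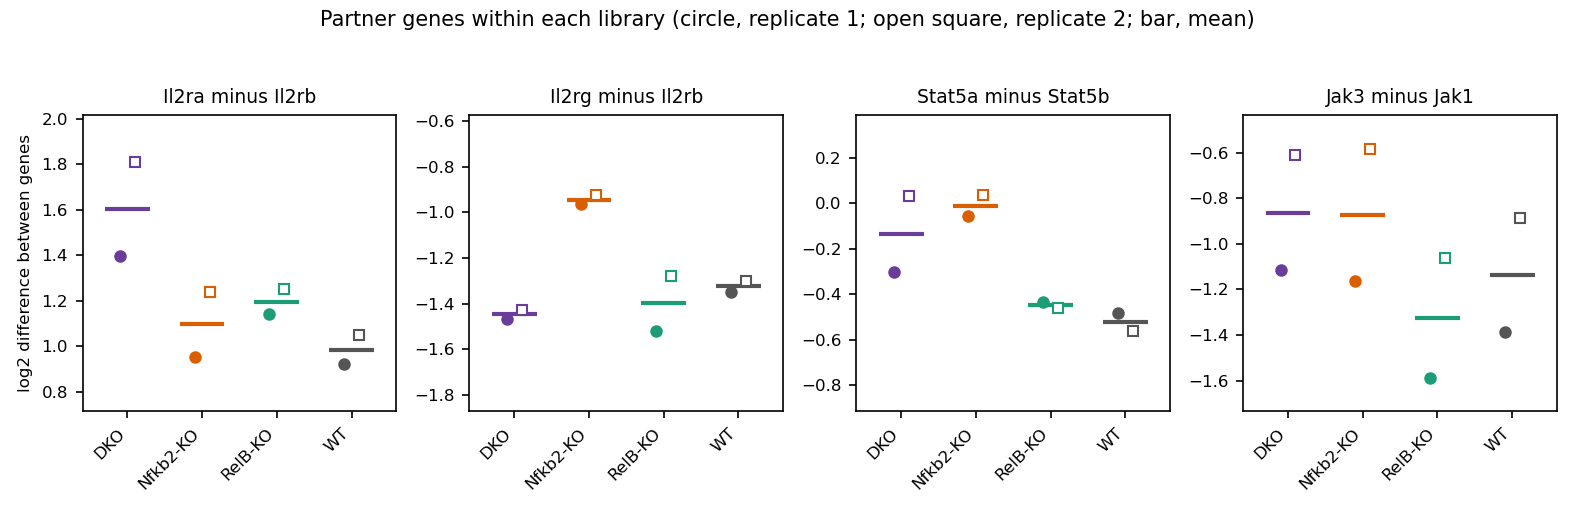
Log2 difference between partner genes within each library (vertical axis, same span in each panel) in DKO, Nfkb2-KO, RelB-KO and WT cells; filled circles are replicate 1, open squares replicate 2 and bars the mean of n = 2. Il2rg minus Il2rb was highest in Nfkb2-KO (-0.96 and -0.92), and Jak3 minus Jak1 was higher in replicate 2 than in replicate 1 in every genotype.

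Of the receptor kinases, Jak3, which binds the common gamma chain, varied more than Jak1. Jak3 was at 12.64 and 12.96 in DKO, 12.74 and 13.15 in Nfkb2-KO, 12.29 and 12.63 in RelB-KO and 12.46 and 12.91 in WT. Replicate 2 exceeded replicate 1 in every genotype, and within each replicate number Nfkb2-KO was highest and RelB-KO lowest. Nfkb2-KO minus RelB-KO was 0.48 with a standard error of 0.22 without the block and 0.07 with it. The limma adjusted p was 0.466 without and 0.00743 with the block, so Jak3 was higher in Nfkb2-KO than in RelB-KO in the blocked model alone, and in 5 of 8 omissions there. The call was lost without either Nfkb2-KO library or RelB-KO replicate 2, with an adjusted p of up to 0.0721.

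Jak3 in Nfkb2-KO minus WT was 0.26 ± 0.22 (limma adjusted p = 0.773, 0.103 with the block), and the authors' deposited table calls it at 0.28 with an adjusted p of 0.0265. Within replicate 1 this difference was 0.28 and within replicate 2 it was 0.24. Without WT replicate 1 and without the block it was 0.04, and the remaining WT library was the higher one. That value sets both Nfkb2-KO libraries against WT replicate 2 alone, and Jak3 was higher in replicate 2 in every genotype. RelB-KO minus WT was -0.23 ± 0.22 (limma adjusted p = 1), and DKO minus RelB-KO was 0.34 ± 0.22 (limma adjusted p = 1, 0.546 with the block). Jak1, the kinase on the beta chain, was at 13.76 and 13.57 in DKO, 13.90 and 13.73 in Nfkb2-KO, 13.88 and 13.70 in RelB-KO and 13.85 and 13.79 in WT. DKO lay below both WT libraries, by -0.16 ± 0.12 (95% interval -0.44 to 0.13; limma adjusted p = 0.886).

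Stat5a and Stat5b encode closely related factors from neighbouring genes, and they differed in pattern. Stat5a was at 13.10 and 13.09 in DKO, 13.37 and 13.36 in Nfkb2-KO, 13.06 and 12.74 in RelB-KO and 12.91 and 12.83 in WT. Both Nfkb2-KO libraries were above all others, DKO came next, and RelB-KO and WT overlapped. Nfkb2-KO minus WT was 0.50 ± 0.11 (95% interval 0.22 to 0.77; limma adjusted p = 0.213), and Stat5a rose with the block (adjusted p = 0.0276). The authors' deposited table gives 0.52 with an adjusted p of 9.44e-05.

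With the block the Stat5a call was kept in 4 of 8 omissions and lost without any Nfkb2-KO or WT library. Without WT replicate 1 it was 0.48 (limma adjusted p = 0.101 with the block). Nfkb2-KO minus RelB-KO was 0.47 ± 0.11 (limma adjusted p = 0.185, 0.0256 with the block), called with the block in 5 of 8 omissions and lost without either Nfkb2-KO library or RelB-KO replicate 2, at up to 0.182. DKO minus WT was 0.22 ± 0.11 (limma adjusted p = 0.861) and DKO minus Nfkb2-KO was -0.28 ± 0.11 (limma adjusted p = 0.506, 0.153 with the block). The interaction was -0.31 with a limma adjusted p of 1, or 0.555 with the block, so a dependence of the RelB effect on Nfkb2 was not called for Stat5a.

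Stat5b was at 13.40 and 13.06 in DKO, 13.43 and 13.33 in Nfkb2-KO, 13.49 and 13.20 in RelB-KO and 13.39 and 13.40 in WT. No genotype stood clear of another. DKO minus WT was -0.17 ± 0.15 (95% interval -0.52 to 0.19; limma adjusted p = 0.9), and Nfkb2-KO minus WT was -0.02 ± 0.15 (95% interval -0.37 to 0.34; limma adjusted p = 0.995). Stat5a minus Stat5b was -0.30 and 0.03 in DKO, -0.06 and 0.04 in Nfkb2-KO, -0.43 and -0.46 in RelB-KO and -0.48 and -0.56 in WT. Libraries without Nfkb2 all lay above libraries with it in this measure, which was not tested.

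The inhibitors, which are themselves STAT5 targets, had no call in any contrast. Cish was at 13.63 and 13.71 in DKO, 13.77 and 13.87 in Nfkb2-KO, 13.73 and 13.73 in RelB-KO and 13.62 and 13.77 in WT, a span of 0.25 over 8 libraries and the narrowest of the members. Nfkb2-KO minus WT was 0.12 ± 0.10 (95% interval -0.10 to 0.35; limma adjusted p = 0.734). DKO minus Nfkb2-KO was -0.15 ± 0.10 (limma adjusted p = 0.732). An antisense gene model overlaps Cish, and its reads may be counted with it.

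Socs1 was at 12.28 and 12.68 in DKO, 12.57 and 12.66 in Nfkb2-KO, 12.42 and 12.39 in RelB-KO and 12.31 and 12.69 in WT. Both Nfkb2-KO libraries were above both RelB-KO libraries, by 0.21 ± 0.17 (95% interval -0.19 to 0.63; limma adjusted p = 0.719), and the replicates of DKO and WT spread more than that. Socs2 was at 11.67 and 11.79 in DKO, 11.35 and 11.57 in Nfkb2-KO, 11.55 and 11.76 in RelB-KO and 11.27 and 11.60 in WT. DKO lay above WT and Nfkb2-KO in both replicates. DKO minus WT was 0.29 ± 0.14 (limma adjusted p = 0.861, 0.235 with the block), and the authors' deposited table gives 0.32 with an adjusted p of 0.0703. DKO minus Nfkb2-KO was 0.27 ± 0.14 (limma adjusted p = 0.648, 0.0791 with the block), and RelB-KO minus WT was 0.22 ± 0.14 (limma adjusted p = 1). Within replicate 1, DKO minus WT was 0.39 and within replicate 2 it was 0.20. Without WT replicate 1 and without the block it was 0.13. That value sets both DKO libraries against WT replicate 2 alone, and Socs2 was higher in replicate 2 in every genotype.

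Other genes of the common gamma chain family, Il21, Il21r and Il7r, were higher in Nfkb2-KO cells, Il21 by the model without the block and the other two with it. All lists here and below were chosen with earlier results of these data known, so their counts and medians are descriptions. The family list held 13 further ligands and receptors, of which 12 were tested. Between Nfkb2-KO and WT 1 was called higher and 0 lower without the block (0.341% of all genes called), and 3 higher and 0 lower with it (2.91%). The list's median was 0.03, against 0.00 for all genes. Il21, the cytokine IL-21, was at 6.41 and 6.27 in Nfkb2-KO and 5.28 and 5.27 in WT and rose by 1.07 ± 0.12 (limma adjusted p = 0.0435). Il7r, the IL-7 receptor alpha chain, was at 12.35 and 11.78 in Nfkb2-KO and 11.39 and 11.29 in WT and rose with the block. It differed by 0.72, with a standard error of 0.27 without the block and 0.13 with it (limma adjusted p = 0.414 without and 0.0279 with it). Il21r, the IL-21 receptor, was at 12.65 and 12.81 in Nfkb2-KO and 12.27 and 12.39 in WT and rose with the block. It differed by 0.40, with a standard error of 0.12 without the block and 0.07 with it (limma adjusted p = 0.336 without and 0.023 with it). With the block and without WT replicate 1, Il21 was still called (limma adjusted p = 0.00976), while Il7r (0.52; 0.109) and Il21r (0.43; 0.0613) were not, and without both the block and that library Il21 was not called either (0.275).

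In DKO these 3 genes were lower than in Nfkb2-KO with the block (5.02% of all genes called). Il21 was at 5.41 and 5.72 in DKO (difference -0.77 ± 0.12; limma adjusted p = 0.00511 with and 0.0561 without the block). Il7r was at 11.40 and 11.15 in DKO (limma adjusted p = 0.0116 with and 0.367 without). It differed by -0.79, with a standard error of 0.27 without the block and 0.13 with it. Il21r was at 12.06 and 12.29 in DKO (-0.56 ± 0.12, limma adjusted p = 0.00309 with and 0.134 without). The interaction was not called for any of them, with limma adjusted p of 0.119 for Il21, 0.227 for Il7r and 0.193 for Il21r with the block. Il2 itself was at 6.06 and 6.44 in DKO, 6.32 and 6.18 in Nfkb2-KO, 5.51 and 5.58 in RelB-KO and 5.83 and 5.56 in WT. It was called in Nfkb2-KO against RelB-KO with the block (0.71 ± 0.15; limma adjusted p = 0.0257, 0.133 without), where Il21, Il7r and Il21r were called as well.

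The list of genes that IL-2 or STAT5 represses was also chosen with earlier results known, so its median and counts are a description. Of its 7 genes, 5 had negative and 2 positive differences for Nfkb2-KO minus WT (median -0.50, against 0.00 for all genes). Without the block 0 were called higher and 1 lower (0.341% of all genes called), and with it 1 higher and 3 lower (2.91%). Il6ra, the IL-6 receptor alpha chain, was at 9.08 and 9.17 in Nfkb2-KO and 10.51 and 10.22 in WT and fell by 1.24 ± 0.11 (limma adjusted p = 0.0214). Its partner Il6st (gp130) was at 11.55 and 11.54 in Nfkb2-KO and 12.09 and 12.00 in WT and fell with the block (-0.50 ± 0.08; limma adjusted p = 0.00914, 0.0798 without). Bcl6, a transcriptional repressor that directs follicular T cells, was at 8.15 and 7.65 in Nfkb2-KO and 8.74 and 8.79 in WT and fell with the block (-0.86 ± 0.20; limma adjusted p = 0.00905, 0.213 without). With the block and without WT replicate 1, Il6ra (limma adjusted p = 0.00315) and Bcl6 (0.00828) were still called and Il6st was not (0.0601), and without the block Il6ra was not called either (0.0819). The gene called higher with the block was Il7r, which is in both lists.

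Between DKO and Nfkb2-KO the same list had 2 genes called higher and 0 lower without the block (0.768% of all genes called), and 2 higher and 1 lower with it (5.02%). Il6ra was at 10.27 and 10.17 in DKO and rose by 1.09 ± 0.11 over Nfkb2-KO (limma adjusted p = 0.0158), and Il6st was at 12.23 and 12.13 in DKO and rose by 0.63 ± 0.08 (limma adjusted p = 0.0274). Klf2, a regulator of trafficking, was called in Nfkb2-KO against RelB-KO with the block (-0.67 ± 0.18; limma adjusted p = 0.0256, 0.216 without). The interaction was called with the block for Il6ra (1.04 ± 0.15; limma adjusted p = 0.0226, 0.285 without).

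**Figure D4:**
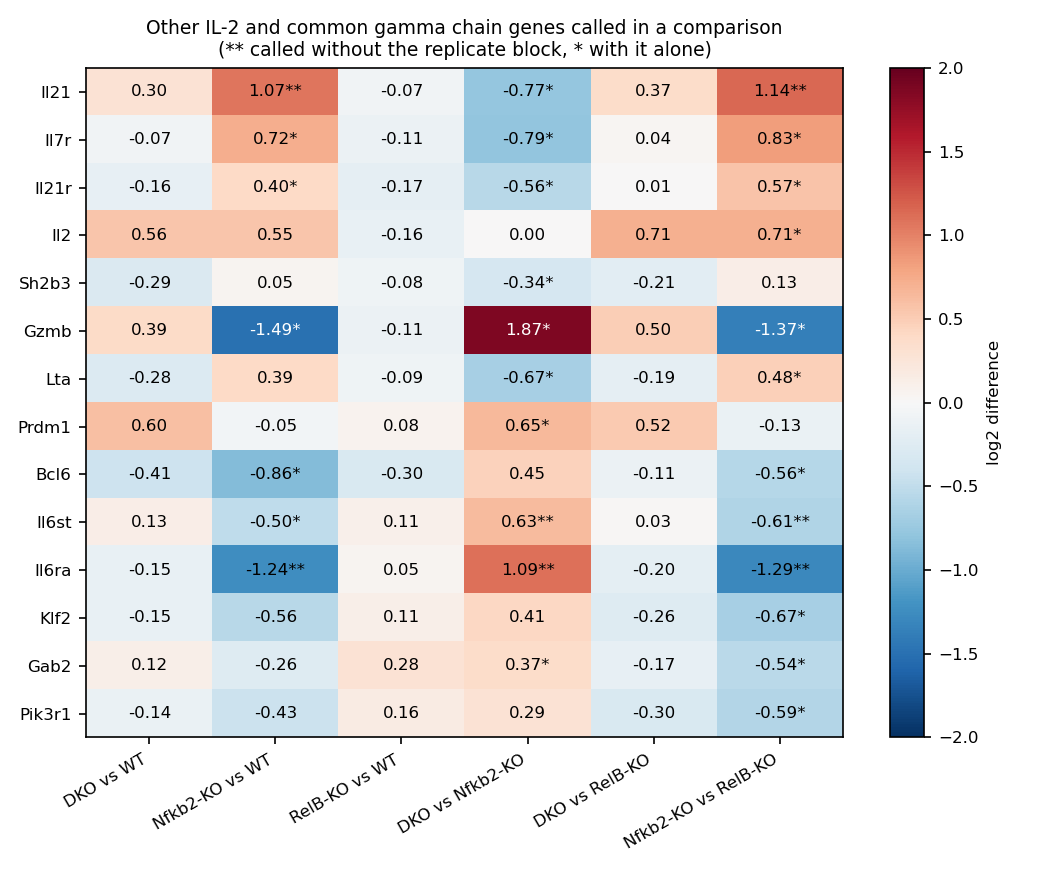
Log2 difference (colour and printed value) of the 14 genes of the other IL-2 and common gamma chain lists that were called in at least 1 contrast, tested genotype minus the one it is set against in each column; 2 asterisks mark a call without the replicate block and 1 asterisk a call with it alone. Calls lie in the columns that involve Nfkb2-KO, such as Il6ra at -1.24 against WT, and none lies in DKO against WT, RelB-KO against WT or DKO against RelB-KO. All genes tested share this pattern. With the block 402 were called in Nfkb2-KO against WT, 693 in DKO against Nfkb2-KO and 615 in Nfkb2-KO against RelB-KO. In DKO against WT, RelB-KO against WT and DKO against RelB-KO the counts were 9, 2 and 2.

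Genes that IL-2 or STAT5 induces included Gzmb and Lta, which differed in opposite directions. Of 20 tested, 11 had positive and 9 negative differences for Nfkb2-KO minus WT (median 0.01, against 0.00 for all genes). Without the block 0 were called (0.341% of all genes), and with it 1 was called lower (2.91%). Gzmb, the granule protease granzyme B, was at 8.33 and 9.39 in Nfkb2-KO and 9.85 and 10.85 in WT and fell with the block. Gzmb differed by -1.49, with a standard error of 0.62 without the block and 0.15 with it (limma adjusted p = 0.471 without and 0.00196 with it). Without WT replicate 1 it was called as well with the block (limma adjusted p = 0.0156). It was at 9.97 and 11.49 in DKO and higher there than in Nfkb2-KO with the block (limma adjusted p = 4e-04, 0.356 without). That difference was 1.87, with a standard error of 0.62 without the block and 0.15 with it. The interaction for Gzmb was called with the block (limma adjusted p = 0.00966). Prdm1, which encodes the effector regulator Blimp-1, was at 11.22 and 11.51 in DKO and 10.73 and 10.70 in Nfkb2-KO and rose with the block (0.65 ± 0.16; limma adjusted p = 0.0135, 0.185 without). Lta, the cytokine lymphotoxin alpha, was at 11.67 and 11.57 in DKO and 12.22 and 12.37 in Nfkb2-KO and fell with the block (-0.67 ± 0.11; limma adjusted p = 0.00725, 0.0687 without). For DKO minus WT 14 of the 20 differences were positive and 6 negative (median 0.09, against 0.00 for all genes). Of these 0 were called without the block (0.0145% of all genes) or with it (0.0652%).

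The remaining lists held few calls. Over all genes, calls with the block made up 2.91% in Nfkb2-KO against WT, 5.02% in DKO against Nfkb2-KO and 4.46% in Nfkb2-KO against RelB-KO. They made up 0.0652% in DKO against WT and 0.0145% in RelB-KO against WT. The 7 other JAK and STAT genes all had negative differences for DKO minus WT (median -0.13, against 0.00 for all genes), but 0 were called in any contrast with or without the block, and the largest difference there was that of Stat4 (-0.22 ± 0.25; limma adjusted p = 0.93). Stat4 also had the largest difference in Nfkb2-KO against WT (0.22 ± 0.25; limma adjusted p = 0.855). Of 15 other SOCS, PIAS and phosphatase genes 0 were called in either WT contrast, and Sh2b3, the adaptor LNK, fell in DKO relative to Nfkb2-KO with the block (-0.34 ± 0.10; limma adjusted p = 0.0499, 0.256 without). Of 17 tested genes of the PI3K and MAPK branch 0 were called against WT. The adaptor Gab2 was higher in DKO than in Nfkb2-KO with the block (0.37 ± 0.15; limma adjusted p = 0.0303, 0.471 without), and Gab2 (-0.54 ± 0.15; 0.0065 with, 0.222 without) and the PI3K regulatory subunit Pik3r1 (-0.59 ± 0.27; 0.0232 with, 0.459 without) were lower in Nfkb2-KO than in RelB-KO by the same limma model.

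The members did not move as 1 block across the libraries. After centring each gene within its replicate number, Pearson correlations over the 8 libraries, which share their normalization and batch correction, were highest for Il2rb with Jak1 (0.92), Jak1 with Stat5b (0.871), Il2rb with Cish (0.858), Il2rg with Il2rb (0.847), Il2rg with Cish (0.815), Il2rb with Stat5b (0.813) and Stat5a with Jak3 (0.812). Il2ra ran against Jak1 (-0.851) and along with Socs2 (0.727). These are descriptions over 8 libraries. Stat5a and Stat5b, despite shared sequence, had a correlation of 0.02.

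**Figure D5:**
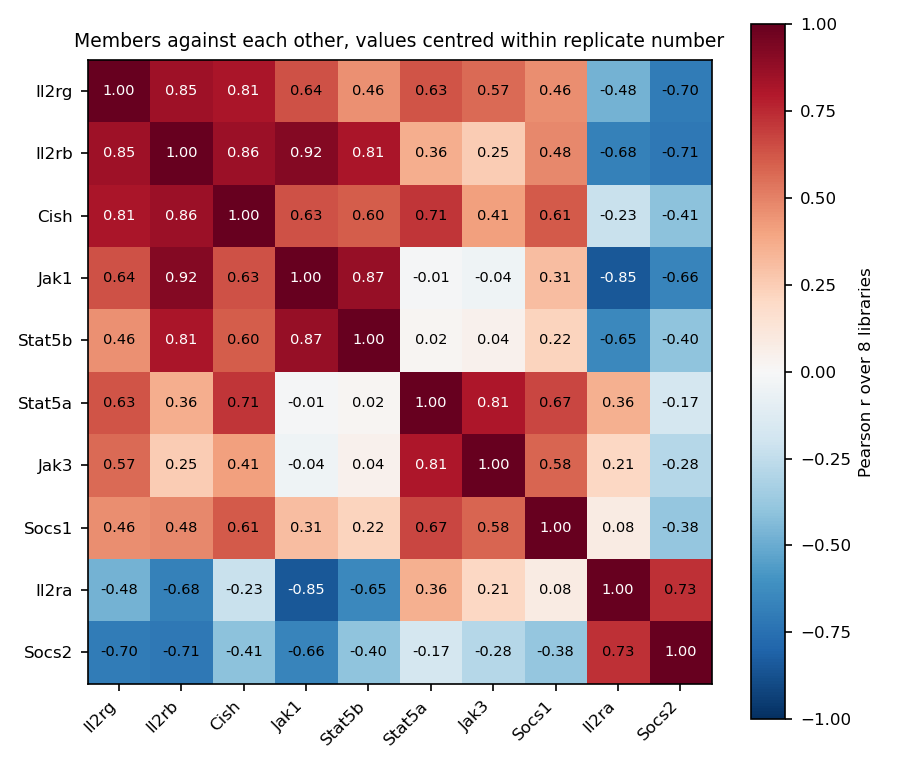
Pearson correlation between members (colour and printed value) over the 8 libraries after centring within replicate number. Il2ra and Socs2 have negative values with each of Il2rg, Il2rb, Cish, Jak1 and Stat5b, whose values with each other run from 0.46 (Il2rg with Stat5b) to 0.92 (Il2rb with Jak1); Stat5a and Jak3 correlate at 0.81, and Stat5a also with Cish (0.71) and Il2rg (0.63).

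Among 7977 genes with a mean of at least 8 that are not members, the ones most like Il2ra by the same measure were Bzw2 (0.988), Ssr3, a subunit of the translocon-associated complex (0.974), Prkrir (0.972), Sel1l, an adaptor of endoplasmic reticulum degradation (0.971), and Creg1 (0.97). Bzw2 averaged 11.67 in DKO, 11.51 in Nfkb2-KO, 11.53 in RelB-KO and 11.42 in WT. For Il2rg they were Bin1, a membrane-curving protein (0.99), Zc3h12c, a CCCH zinc finger protein (0.99), Ctss, the lysosomal protease cathepsin S (0.99), Asap2 (0.988) and Slc44a1, a choline transporter (0.987). Ctss averaged 11.51 in DKO, 12.36 in Nfkb2-KO, 11.66 in RelB-KO and 11.86 in WT, the same order of genotypes as for Il2rg. A shared order follows from choosing genes by their correlation. Being the highest of 7977 over 8 libraries, these correlations are descriptions only.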

How the data were processed

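RNA of 8 Treg samples was sequenced. Per the submitters' processing notes the tools included STAR and DESeq2 1.10.1 and the build mm10; how reads were counted and batches corrected, and with which annotation, is not given in the sources used here. The deposited log2 values are batch-corrected log2 RPKM per the file headers, though they did not behave as RPKM. The authors' own log2 fold changes and p-values come from the same deposited table, and their 8 z-score columns were not used. The planned log2(value + 1) became an alternative because the deposited values are log2 as they stand.

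Genes at a deposited value of 0 in all libraries (6247), with a blank cell (1) or with a mean un-logged value under 1 were left out, which kept 13797. limma 3.58.1 in R 4.3.3, with a variance trend, was fitted to the 8 libraries with 4 genotypes (4 residual degrees of freedom). Replicate differences correlated across genes at 0.812 to 0.887 in the 6 pairs of genotypes, so the numbers were treated as pairing libraries, and a model with the replicate block (3 residual degrees of freedom) is given where it changes a call. Alternatives were pseudocount, filters, normalization, variance trend, groups fitted and each library left out. No counts were used here, so each library's depth is unknown and counting intervals cannot be had. The members and gene lists were chosen with earlier results of these data known. For 1 gene of the planned lists the result is not reported here, and counts leave it out. Named genes are the members, checks of the labels, list genes called in any contrast or, in lists with none, of the largest difference, and the 5 genes most like Il2ra and Il2rg. Promoter windows are from RefSeq GRCm38.p6 and loci from GENCODE vM21.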

Additional observations from a re-analysis of the deposited data

How the results depend on the processing

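The 31 member results with a reported test gave 246 pairs of a result and another setting, and 236 kept their direction and side of the threshold. Only Il2rg between DKO and Nfkb2-KO was called without the block. For the rest, keeping the side mostly means that a result without a call stayed without one. Without the block the Il2rg call between DKO and Nfkb2-KO stood at a limma adjusted p of 0.047. It was lost there with a pseudocount of 1 (limma adjusted p = 0.0526), median centring (0.0712), quantile normalization (0.309) and a fit of the compared groups alone (0.249). Under the other settings the difference lay between -0.690 and -0.612. These 4 settings were not combined with the block, which by itself gave 0.00215. Quantile normalization, which sets so high a value by its rank alone, put Il2ra in Nfkb2-KO minus WT at 0. Leaving out 1 library kept 238 of 248 such pairs, and the 8 lost calls were all of Il2rg between DKO and Nfkb2-KO. With 1 library left out, Stat5b in DKO minus WT ran from -0.338 to 0.0036. In Nfkb2-KO minus WT it ran from -0.0684 to 0.0375, so its sign is not fixed.

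Counts of called genes depended on the model. With the replicate block they were 9 (2 without it) in DKO against WT, 402 (47) in Nfkb2-KO against WT, 2 (1) in RelB-KO against WT, 693 (106) in DKO against Nfkb2-KO, 2 (1) in DKO against RelB-KO, 615 (110) in Nfkb2-KO against RelB-KO and 65 (1) for the interaction. The block called Il2rg and Stat5a in Nfkb2-KO against WT and Il2rg, Jak3 and Stat5a in Nfkb2-KO against RelB-KO, and changed no other member's call. With the block and without WT replicate 1, an alternative chosen after seeing the data, they were 31, 176 and 6 in the 3 contrasts with WT. Without a variance trend they were 1 in DKO against WT, 12 in Nfkb2-KO against WT, and 0 in DKO against RelB-KO and for the interaction. With the compared groups alone they were 0 in DKO against WT, 1 in Nfkb2-KO against WT, 13 in DKO against Nfkb2-KO, 0 in DKO against RelB-KO and 13 in Nfkb2-KO against RelB-KO. Without a filter and with a stricter one they were 20 and 15 in Nfkb2-KO against WT and 0 and 0 in DKO against RelB-KO. Leaving out each library gave 1 to 13 in DKO against WT, 0 to 29 in Nfkb2-KO against WT, 1 to 12 in RelB-KO against WT, 8 to 58 in DKO against Nfkb2-KO, 0 to 2 in DKO against RelB-KO, 9 to 55 in Nfkb2-KO against RelB-KO and 0 to 12 for the interaction. The causes were not tested. With 2 libraries a genotype and unknown depth, small differences of single genes cannot be resolved.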
